A study of Mus musculus with 26 samples.

Results

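The genes described here are 10 markers that developmental biologists use to recognise the trophoblast, the lineage that forms the placenta, and the mesendoderm, the first cells to enter the primitive streak at gastrulation. They were chosen by symbol: *Cdx2*, *Eomes*, *Elf5*, *Tfap2c*, *Hand1*, *T*, *Mixl1*, *Gsc*, *Krt8* and *Krt18*, which are 10 of the 24409 rows of the RNA-seq table. Each row gives FPKM, the number of fragments per kilobase of transcript scaled to the mapped fragments of the library, so levels can be compared between genes as well as between libraries. The series examined what is lost in mouse embryonic stem (ES) cells without ZFP57, a KRAB zinc finger protein that binds methylated DNA at imprinting control regions. RNA was sequenced from 3 wild-type (WT) and 2 ZFP57 KO libraries, all from male C57BL/6J cells. The KO is zygotic, so the cells came from embryos whose own *Zfp57* copies were disrupted. Both genotypes were derived from morulae that were collected at embryonic day 2.5 and kept for 2 days to the blastocyst stage, when the trophectoderm was taken off by immunosurgery, and both were grown with LIF and inhibitors of ERK and GSK3 (2i) for at most 15 passages. The study speaks of WT and KO cell lines, names 3 WT biological replicates for the ZFP57 ChIP, and sequenced RNA from the same lines. The labels do not tie each RNA library to a line of its own, so p-values measure only the spread between these samples, which may be technical in part.

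At the blastocyst stage the outer cells become trophectoderm under the control of CDX2, EOMES, ELF5 and AP-2γ (*Tfap2c*), and these factors later keep trophoblast stem cells dividing. Some days later EOMES and brachyury (*T*), both T-box factors, act in the primitive streak together with the homeobox factors MIXL1 and goosecoid (*Gsc*). Keratins 8 and 18 pair to form the intermediate filaments of simple epithelia, trophectoderm included. ES cells in 2i are close to the inner cell mass, in which these genes are mostly silent or very low, and a GSK3 inhibitor stabilises β-catenin, the effector of Wnt signalling, in both genotypes.

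*Zfp57*, the targeted gene, read 75.94, 72.34 and 70.55 FPKM in the WT libraries and 19.00 and 21.62 FPKM in the KO libraries, so both KO libraries lay below all WT libraries (log2 fold change −1.84, SE 0.06, adjusted p = 2.3e-04). Which exons the remaining reads came from was not tested. The depth, estimated from the step size of microRNA genes, was about 50900000 to 58900000 fragments per library. The summed level of 10 pluripotent cell markers was 715 to 734 FPKM in WT and 790 to 848 FPKM in KO cells, with 5 of the 10 higher and 2 lower. Over all tested genes 18.8% were called higher and 22.3% lower, which is the background for each count of markers given here. Markers of feeder fibroblasts summed to 0.49 to 0.56 FPKM in WT and 0.49 to 0.58 FPKM in KO cells. The 2 tested were *Thy1* (0.247 and 0.17 FPKM in WT and KO cells) and *Twist1* (0.17 and 0.28 FPKM). Of these, 0 passed the test of limma (0 also at an unadjusted p under 0.05). *Col3a1*, *Lum* and *Dcn* were at 0 in all 5 libraries. Primitive endoderm markers summed to 102 to 105 against 95.1 to 104 FPKM, with 2 of 7 tested higher and 1 lower. Nearly all of that sum was *Sparc* (101 and 91.9 FPKM). The laminin gene *Lama1* rose from 1.1 to 5.97 FPKM and *Sox7* from 0.117 to 0.69 FPKM (adjusted p = 4.1e-04 and 0.0041). The collagen gene *Col4a1* fell from 0.43 to 0.25 FPKM (adjusted p = 0.0425). *Gata4* (0.257 and 0.16 FPKM in WT and KO cells), *Dab2* (0.183 and 0.15 FPKM) and *Cubn* (0.137 and 0.225 FPKM) were not called. *Gata6* and *Sox17* were at most 0.06 FPKM in every library. Neural markers summed to 14.3 to 16.8 against 10.6 to 14.4 FPKM, with 1 of 5 higher and 1 lower. The higher gene, *Sox1*, averaged 0.0867 FPKM in WT and 0.57 FPKM in KO cells. It passed the minimum mean of 0.1 FPKM for the test only through its KO libraries.

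*Eomes*, *Krt8* and *T* were higher in ZFP57 KO ES cells and *Tfap2c* was lower, while *Cdx2*, *Mixl1*, *Gsc* and *Krt18* did not pass the test. *Elf5* and *Hand1* averaged under 0.1 FPKM, the minimum for the test, and were not tested. Thus 4 of the 8 tested members were called (3 higher and 1 lower), or 50.0%, in a comparison in which 41.1% of all 14612 tested genes were called. Over all tested genes the shares were 18.8% higher and 22.3% lower. *Cdx2* passed the minimum only through its KO libraries (mean 0.07 FPKM in WT and 0.175 FPKM in KO cells), so the count of tested members leans toward genes higher in KO cells. The groups did not overlap for 5 of the 8 tested members, whereas 63.4% of all tested genes had groups that did not overlap, so neither share stood far above its background. Both KO libraries lay above all WT libraries for *Eomes*, *Krt8*, *T* and *Cdx2*, and so they did for 30.3% of tested genes, and below them for *Tfap2c*, as for 33.1%. Fold changes past 1 on the log2 scale were rarer: 8.02% of tested genes were called with a change of that size, and 2.93% were called higher with it, as were *Eomes*, *Krt8* and, narrowly, *T*. The members were chosen with earlier results of these data known, so these shares only describe them. In bulk RNA, a change in the share of expressing cells and a change in RNA per cell cannot be told apart.

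**Figure D1:**
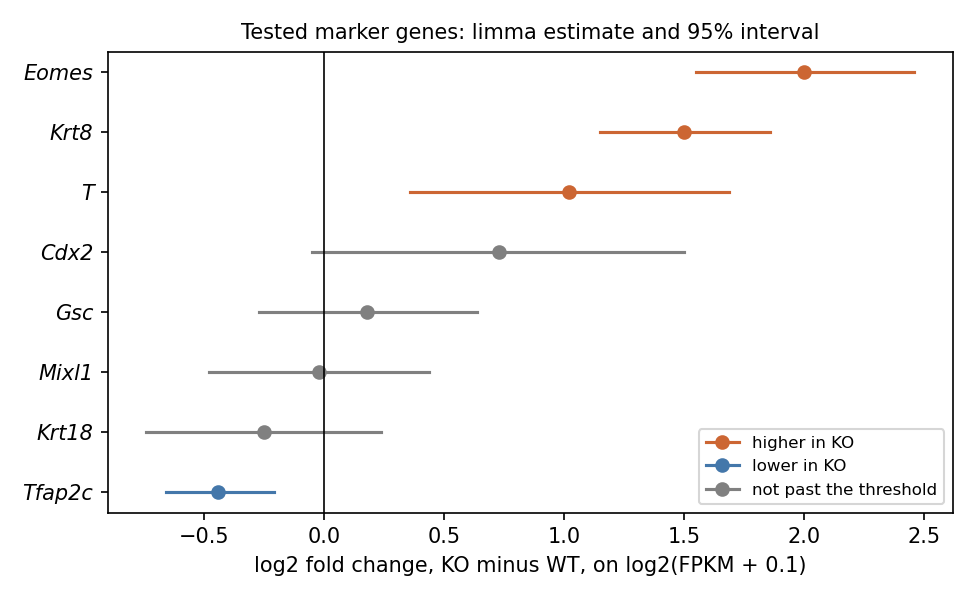
Log2 fold change (KO minus WT, on log2(FPKM + 0.1)) of the 8 tested marker genes, with the limma estimate as a point and its 95% interval as a line. The intervals of *Eomes*, *Krt8* and *T* lie above 0, that of *Tfap2c* lies below 0, and those of *Cdx2*, *Gsc*, *Mixl1* and *Krt18* span 0.

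In WT cells only *Tfap2c* was abundant, with a mean of 16.4 ± 1.14 FPKM (SD, n = 3), a level at or above that of 89.1% of all genes. *Gsc* followed at 1.0 ± 0.101 FPKM, above all values of the next gene, then *Krt18* at 0.747 ± 0.127, *Krt8* at 0.613 ± 0.0503, *Eomes* at 0.497 ± 0.111, *T* at 0.367 ± 0.124 and *Mixl1* at 0.26 ± 0.0346 FPKM. The WT ranges of neighbours in that order overlapped from *Krt18* through to *Mixl1*, so these neighbours did not separate by their ranges, although *Krt18* was above *Krt8*, *Eomes* above *T* and *T* above *Mixl1* in each of the 3 WT libraries. *Cdx2* at 0.07 ± 0.05 FPKM lay below *Mixl1* without overlap, and the ranges of *Cdx2*, *Elf5* and *Hand1* overlapped in turn. In KO cells *Tfap2c* was still first, and *Eomes* and *Krt8* moved up to the next places, ahead of *Gsc*.

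**Figure D2:**
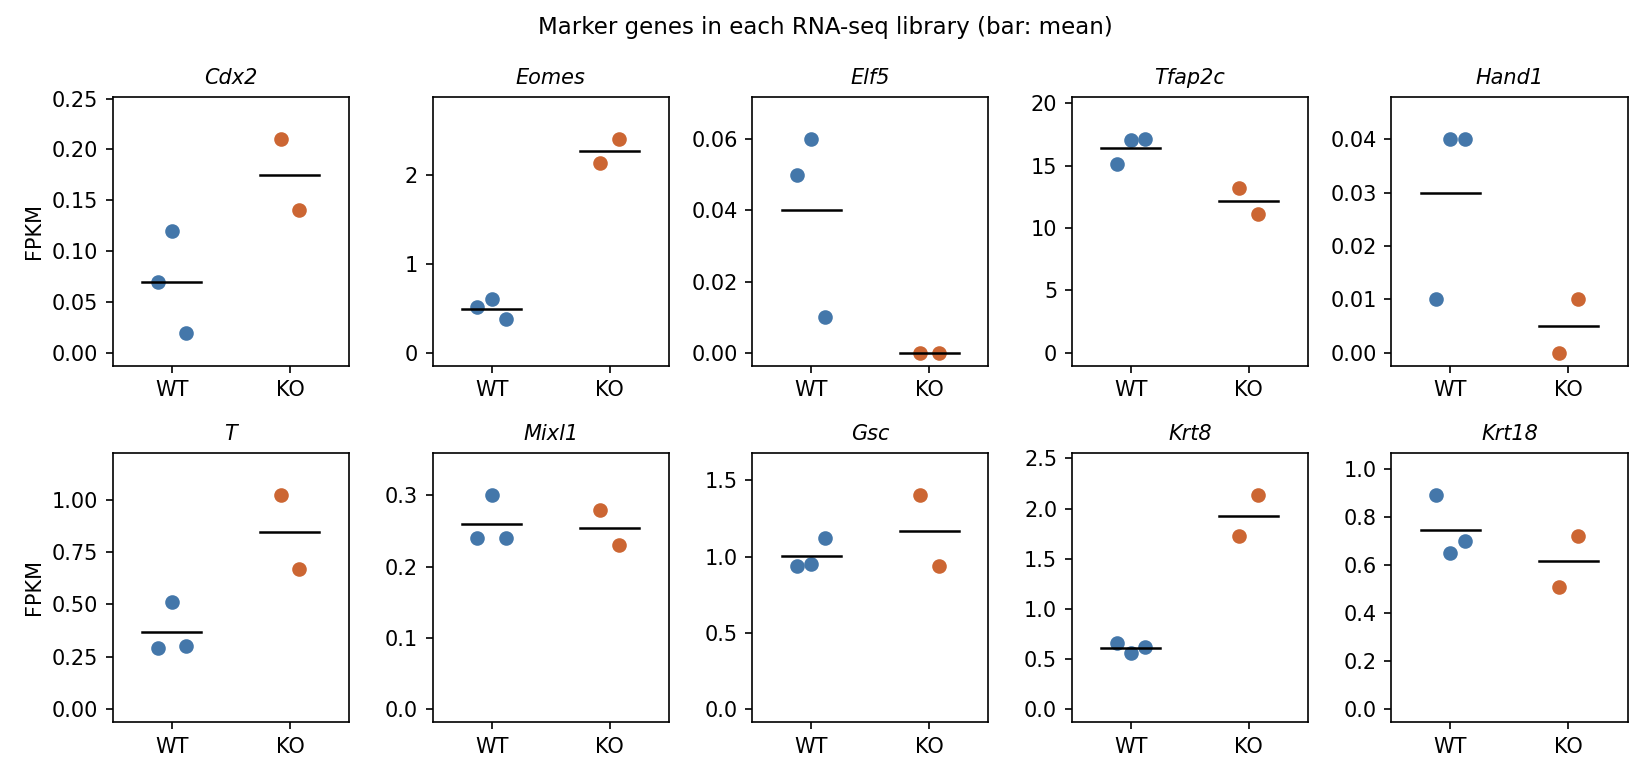
FPKM of each of the 10 marker genes in the 3 WT and 2 KO libraries, 1 panel per gene with its own linear axis; points are libraries and bars are group means. The KO points of *Eomes* and *Krt8* lie well above all WT points, those of *Tfap2c* lie below them, and those of *Mixl1*, *Gsc*, *Krt18* and *Hand1* overlap the WT points.

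*Eomes* (chr9:118478186-118486132, plus strand, GRCm38) encodes a T-box factor needed first in trophectoderm and then in mesendoderm. It read 0.51, 0.60 and 0.38 FPKM in the WT libraries and 2.13 and 2.40 FPKM in the KO libraries. Both KO values were far above every WT value, and the KO mean of 2.26 ± 0.191 FPKM (SD, n = 2) was 4.56 times the WT mean. The log2 fold change was 2.0 (SE 0.19, 95% interval 1.55 to 2.46, adjusted p = 8.0e-04), and 0.739% of tested genes had a fold change at least as high. With the length of its exons in RefSeq, the values correspond to about 105, 131 and 72 fragments in WT and 414 and 492 in KO, so counting error was small beside the difference.

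*T*, or brachyury (chr17:8434423-8442496, plus strand), is the defining T-box gene of the primitive streak and a direct target of Wnt signalling. Its level was 0.29, 0.51 and 0.30 FPKM in WT and 1.02 and 0.67 FPKM in KO libraries, from about 33, 61 and 31 against 109 and 76 fragments. The groups did not overlap, but the gap between the highest WT and the lowest KO library was smaller than the gap between the KO libraries. The KO mean of 0.845 ± 0.247 FPKM was 2.3 times the WT mean, with a log2 fold change of 1.02 (SE 0.27, 95% interval 0.36 to 1.69, adjusted p = 0.0266). Over the alternatives its log2 fold change ran from 0.43 with a pseudocount of 1 to 1.29 without KO 2. The call was lost without WT 1 (adjusted p = 0.0761), WT 3 (0.0794) or KO 1 (0.139), and with no filter on low values (0.0527).

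Of the remaining mesendoderm factors neither passed the test. *Mixl1* (chr1:180693043-180697034, minus strand), a homeobox gene of the streak, read 0.24, 0.30 and 0.24 FPKM in WT and 0.28 and 0.23 FPKM in KO libraries. Its log2 fold change was −0.02 (SE 0.19, adjusted p = 0.945), with a 95% interval of −0.48 to 0.44 that overlaps the interval of *T*, and the difference between them was not tested. *Gsc* (chr12:104471209-104473236, minus strand), a marker of the anterior streak and organiser, read 0.94, 0.95 and 1.12 FPKM in WT and 1.40 and 0.94 FPKM in KO libraries. KO 1 was the highest of the 5 libraries and KO 2 shared the lowest value with WT 1 (log2 fold change 0.18, SE 0.19, 95% interval −0.27 to 0.64, adjusted p = 0.472).

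The ratio of *Eomes* to *T* within a library does not depend on how that library was scaled. It was 1.76, 1.18 and 1.27 in WT and 2.09 and 3.58 in KO libraries, so *Eomes* exceeded *T* in all 5 and by more in both KO libraries. As log2 values, these ratios averaged 0.46 ± 0.31 (SD, n = 3) in WT cells and 1.45 ± 0.55 (n = 2) in KO cells, a difference of 0.99 that rests on small numbers of fragments for *T* (two-sided exact permutation test, p = 0.1, the smallest that 3 against 2 libraries can give).

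Among the trophoblast factors, *Cdx2* (chr5:147300900-147307249, minus strand), the homeobox gene that specifies trophectoderm, was close to the limit of detection. It read 0.07, 0.12 and 0.02 FPKM in WT and 0.21 and 0.14 FPKM in KO libraries, or about 8, 15 and 2 against 24 and 17 fragments. Both KO values were above all WT values by a small margin. The log2 fold change of 0.73 (SE 0.32, 95% interval −0.05 to 1.5) missed the threshold (adjusted p = 0.117), and from so few fragments the interval spans both 0 and 1.

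*Elf5* (chr2:103412098-103450989, plus strand), an ETS factor of trophoblast stem cells whose promoter is methylated in ES cells, was also at the limit of detection. The WT libraries read 0.05, 0.06 and 0.01 FPKM, about 6, 8 and 1 fragments, and both KO libraries listed it at 0. For this gene 3 fragments would be 0.0255 FPKM in KO 1 and 0.0242 FPKM in KO 2, so WT 3 lay under that limit as well. No fold is given, and an absence in KO cells cannot be read from it.

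*Tfap2c* (chr2:172545678-172558622, plus strand) encodes AP-2γ, which acts in trophoblast, in naive ES cells and in primordial germ cells. It read 15.12, 17.07 and 17.12 FPKM in WT and 13.21 and 11.09 FPKM in KO libraries. Both KO libraries were below all WT libraries, and the KO mean of 12.2 ± 1.5 FPKM was 0.739 times the WT mean (log2 fold change −0.44, SE 0.09, 95% interval −0.66 to −0.21, adjusted p = 0.012). Without KO 2 the change was −0.31 and the call was lost (adjusted p = 0.0578). The summed level of 8 germ cell markers was also lower, between 87.8 and 108 FPKM in WT and between 52.6 and 61.7 FPKM in KO libraries. Of the 8, all tested, 5 were lower, beside 22.3% of all tested genes. Most of the difference in that sum came from *Dppa3* (32.2 and 6.73 FPKM in WT and KO cells). Pluripotent cell markers went the other way, with sums of 715 to 734 FPKM in WT and 790 to 848 FPKM in KO libraries. The trophoblast stem and trophectoderm genes had a median log2 fold change of 0.45. Whether the change of *Tfap2c* is linked to any of these lists was not tested.

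*Hand1* (chr11:57828713-57832147, minus strand), a basic helix-loop-helix factor of trophoblast giant cells and lateral mesoderm, read 0.01, 0.04 and 0.04 FPKM in WT and 0 and 0.01 FPKM in KO libraries. That is about 1, 4 and 4 against 0 and 1 fragments, the groups overlapped, and no difference was detectable at this depth. The gene lies on chromosome 11, whose 1224 tested genes had a median change of −0.47 on the log2 scale. The part of that shift in the values of *Hand1* was not tested.

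**Figure D3:**
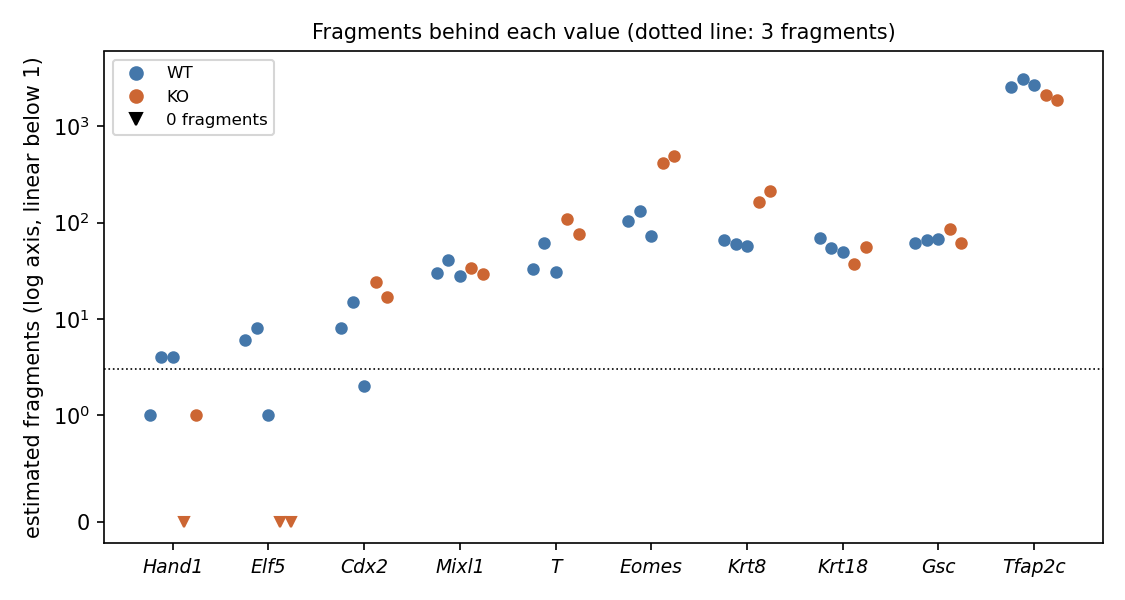
Estimated number of fragments behind each value (vertical axis, logarithmic above 1 fragment and linear below) for the 10 marker genes, ordered by WT mean FPKM, with 1 point per library. The dotted line marks 3 fragments; *Hand1* and *Elf5* have points at or under it, *Cdx2* has 1 WT point under it, and *Tfap2c* has at least 1878 fragments in every library.

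*Krt8* and *Krt18* encode the type II and type I partners of one filament and lie next to each other on chromosome 15, with starts 23.9 kb apart and opposite directions of transcription. *Krt8* (chr15:101996711-102004342, minus strand) read 0.66, 0.56 and 0.62 FPKM in WT and 1.73 and 2.13 FPKM in KO libraries. The KO libraries were clearly apart from a narrow WT range, and the KO mean of 1.93 ± 0.283 FPKM was 3.15 times the WT mean (log2 fold change 1.5, SE 0.14, 95% interval 1.15 to 1.86, adjusted p = 8.7e-04). *Krt18* (chr15:102028216-102032026, plus strand) read 0.89, 0.65 and 0.70 FPKM in WT and 0.51 and 0.72 FPKM in KO libraries. Its groups overlapped and its estimate was below 0 (log2 fold change −0.25, SE 0.2, 95% interval −0.74 to 0.24, adjusted p = 0.361), running from −0.46 without KO 2 to −0.04 without KO 1. The intervals of these partner genes did not meet. Keratin genes have processed copies elsewhere in the genome, and how reads that map to several places were counted is not given in the sources used here.

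The ratio of *Krt8* to *Krt18* was 0.742, 0.862 and 0.886 in the WT libraries and 3.39 and 2.96 in the KO libraries. *Krt18* was thus the more abundant partner in every WT library and *Krt8* in both KO libraries. The log2 ratio averaged −0.27 ± 0.14 (SD, n = 3) over the WT libraries and 1.66 ± 0.14 (n = 2) over the KO libraries, a difference of 1.94 (two-sided exact permutation test, p = 0.1, again the smallest possible). Single-gene exact tests over the same 10 splits gave p = 0.1 for *Eomes*, *Tfap2c* and *Krt8* and p = 0.2 for *T*, *Cdx2* and *Elf5*.

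**Figure D4:**
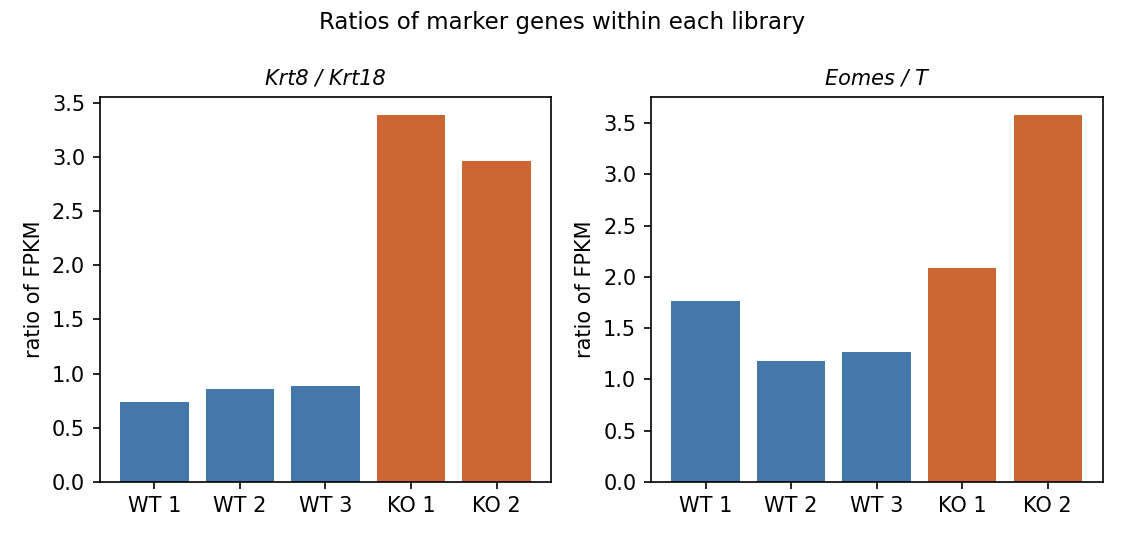
Ratio of FPKM within each library (linear axis from 0) for *Krt8* over *Krt18* and for *Eomes* over *T*, 1 bar per library. The ratio of the keratins is under 1 in the 3 WT libraries and 3.39 and 2.96 in the KO libraries; the ratio of the T-box genes is 1.18 to 1.76 in WT and 2.09 and 3.58 in KO libraries.

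The 250 bases before the start of the genes that rose, and of *Krt18* as the partner that was not called, are printed because these are the members with the largest called changes and the filament partner of one of them. The sequences are RefSeq's on GRCm38.p6, on the strand of the gene. The start of *Eomes* in that table lies 3 bases inside the gene span given above, so the last 3 bases of its window are within that span. In all, 7 of the 10 members had an entry; *Tfap2c*, *Hand1* and *Mixl1* had none. Searched on both strands were TGCCGC (the ZFP57 motif), CTTTGA (the core of TCF/LEF sites), AGGTGTGA (a T-box site) and GCCNNNGGC (an AP-2 site). Capitals mark a match.
*Eomes* promoter (chr9:118477939-118478188, plus strand): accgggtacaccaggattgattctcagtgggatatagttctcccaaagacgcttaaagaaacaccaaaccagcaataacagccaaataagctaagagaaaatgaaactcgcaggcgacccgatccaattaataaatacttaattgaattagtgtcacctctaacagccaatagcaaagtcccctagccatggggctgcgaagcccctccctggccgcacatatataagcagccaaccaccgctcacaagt
*T* promoter (chr17:8434173-8434422, plus strand): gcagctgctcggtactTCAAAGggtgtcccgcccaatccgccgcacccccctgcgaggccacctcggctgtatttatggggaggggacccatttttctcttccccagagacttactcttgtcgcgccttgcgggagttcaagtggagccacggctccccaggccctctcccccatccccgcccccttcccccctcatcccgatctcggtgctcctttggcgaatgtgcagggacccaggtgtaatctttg
*Krt8* promoter (chr15:102004343-102004592, minus strand): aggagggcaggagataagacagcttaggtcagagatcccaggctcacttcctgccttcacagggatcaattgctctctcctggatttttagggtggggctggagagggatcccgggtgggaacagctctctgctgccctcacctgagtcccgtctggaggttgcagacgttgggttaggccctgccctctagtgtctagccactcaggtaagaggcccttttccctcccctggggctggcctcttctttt
*Krt18* promoter (chr15:102027966-102028215, plus strand): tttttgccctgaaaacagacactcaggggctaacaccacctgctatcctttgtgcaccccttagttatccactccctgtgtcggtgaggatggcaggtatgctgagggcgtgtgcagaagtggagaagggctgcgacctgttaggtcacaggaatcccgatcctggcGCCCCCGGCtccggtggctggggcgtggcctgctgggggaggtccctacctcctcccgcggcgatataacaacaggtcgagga
The *T* window holds 1 CTTTGA, on the minus strand at 234 bases before the start, a match found in 13.8% of 32851 RefSeq windows of this length. The *Krt18* window holds 1 GCCNNNGGC at 83 bases before the start, as did 13.7% of windows. The *Eomes* and *Krt8* windows hold none of these letters. No member window had TGCCGC or AGGTGTGA, which occurred in 8.68% and 1.12% of all windows. The *Krt8* window has 3 CpG dinucleotides and the *Krt18* window 12, against a median of 6, and the *Eomes* window is the least GC-rich of the printed sequences at 46.4%, against 58.0% for *Krt8*, 60.4% for *Krt18* and 62.8% for *T*.

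Distances to ZFP57 peaks, taken from the deposited peak list of the C57BL/6J cells, were near those over all genes. None of the 10 had a peak within 20 kb (0 of 10, against 4.25% of all 24284 placed genes), 1 of 10 had a peak within 100 kb (14.2% of all genes), and the median distance was 667 kb against 598 kb over all genes. *Mixl1* was the nearest, at 76.4 kb, followed by *Gsc* at 164 kb and *Eomes* at 267 kb. *Krt8* and *T*, which rose, lay 1450 and 1690 kb from a peak, and *Tfap2c*, which fell, 1740 kb. The peak nearest to *Mixl1* (chr1:180616451-180616639, plus strand of the assembly) is shown as the only one within 100 kb, with the TGCCGC motif of ZFP57 in capitals.
Peak near *Mixl1*: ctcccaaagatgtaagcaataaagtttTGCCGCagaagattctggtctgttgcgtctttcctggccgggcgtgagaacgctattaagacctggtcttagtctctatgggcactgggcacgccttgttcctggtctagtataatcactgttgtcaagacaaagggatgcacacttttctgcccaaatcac

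Other genes of the trophoblast stem and trophectoderm programme moved in both directions. Of 26 listed, 24 were tested and 54.2% of these were called, beside 41.1% of all tested genes (median log2 fold change 0.45). Of the 24, 9 were higher and 4 lower, or 9 and 2 with the median change of each chromosome subtracted. Over all tested genes 18.8% were higher and 22.3% lower. *Dlx3*, 1 of the 4 lower genes, averaged 0.233 FPKM in WT and 0.08 FPKM in KO cells. It passed the minimum for the test only through its WT libraries. Their summed level was 196 to 203 FPKM in WT and 253 to 279 FPKM in KO libraries, but most of it came from *Slc2a3*, a glucose transporter gene (106 and 129 FPKM in WT and KO cells), *Atp1b1*, a sodium pump gene (49.9 and 64.0 FPKM), and *Aqp3*. *Aqp3*, a water channel of the trophectoderm, rose from 14.2 ± 0.705 to 32.0 ± 0.453 FPKM (log2 fold change 1.17, adjusted p = 2.7e-04). *Tead4*, the factor upstream of *Cdx2* in the embryo, rose from 3.71 ± 0.499 to 7.48 ± 1.19 FPKM (0.99, adjusted p = 0.0028). *Cdh3*, or P-cadherin, fell from 3.94 ± 0.547 to 0.99 ± 0.368 FPKM (−1.92, adjusted p = 0.0015), and the placental homeobox gene *Esx1* from 1.25 ± 0.235 to 0.32 ± 0.156 FPKM (−1.72, adjusted p = 0.0041). The most abundant genes of the list that were not called were *Ets2*, at 4.02 FPKM in WT and 4.96 FPKM in KO cells (adjusted p = 0.0567), and *Id2*, at 2.0 and 2.36 FPKM (adjusted p = 0.311).

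Genes of differentiated trophoblast were hardly detected. Of 17 listed, 10 were at 0 in all 5 libraries, among them *Tpbpa* of the spongiotrophoblast and the prolactin family genes *Prl3d1*, *Prl2c2*, *Prl3b1*, *Prl4a1* and *Prl7d1*. The 3 that were tested were called, 1 higher and 2 lower, beside 41.1% of all tested genes, and each is also used in cells other than trophoblast. *Cited2*, a transcriptional co-activator, rose from 8.64 ± 1.28 to 16.5 ± 3.65 FPKM (log2 fold change 0.92, adjusted p = 0.0071). *Slc16a3*, a lactate transporter, fell from 2.93 ± 0.447 to 0.375 ± 0.0212 FPKM (−2.66, adjusted p = 3.3e-04), and *Stra6*, a receptor for vitamin A transport named because it is the only other one tested, from 0.23 ± 0.0265 to 0.065 ± 0.00707 FPKM (−1.0, adjusted p = 0.0097). *Stra6* passed the minimum for the test only through its WT libraries.

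In the primitive streak, mesoderm and definitive endoderm list, 19 of 32 genes were tested, 5 were higher and 4 lower (median 0.33). That is 47.4% called, close to the 41.1% of all tested genes. *Cdx1*, a caudal homeobox gene, rose from 3.97 ± 0.373 to 14.2 ± 2.25 FPKM (log2 fold change 1.8, adjusted p = 3.9e-04), and *Sp5*, a zinc finger gene induced by Wnt, from 2.44 ± 0.465 to 7.15 ± 1.36 FPKM (1.52, adjusted p = 0.0017). The NODAL antagonist genes *Lefty1* and *Lefty2* fell, *Lefty1* from 6.65 ± 1.37 to 2.18 ± 0.636 FPKM (−1.57, adjusted p = 0.0031) and *Lefty2* from 39.4 ± 2.44 to 16.7 ± 7.42 FPKM (−1.31, adjusted p = 0.0083). *Nodal* itself fell from 13.7 to 11.2 FPKM (−0.29, adjusted p = 0.011), and *Tdgf1*, the gene of its co-receptor, was at 178 FPKM in WT and 169 FPKM in KO cells (adjusted p = 0.495). *Cer1*, which encodes another secreted NODAL antagonist, was at 0 in all 5 libraries.

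The T-box family itself was divided. Of 15 genes besides *Eomes* and *T*, 8 were tested, 4 were higher and 2 lower (75.0% called beside 41.1% of all tested genes, median 0.28). *Tbx18*, a gene of the epicardium and somites, rose from 0.25 ± 0.0721 to 2.37 ± 0.735 FPKM (log2 fold change 2.81, adjusted p = 7.4e-04) and *Tbx3*, which ES cells use, from 26.7 ± 2.48 to 40.1 ± 7.39 FPKM (0.58, adjusted p = 0.0128). *Tbx21*, best known from T lymphocytes, fell from 0.98 ± 0.234 to 0.085 ± 0.0354 FPKM (−2.53, adjusted p = 9.2e-04), and it passed the minimum for the test only through its WT libraries. *Mga*, which carries a T-box and a MAX-binding domain, read 39.4 FPKM in WT and 38.9 FPKM in KO cells (adjusted p = 0.789). Of the AP-2 genes other than *Tfap2c*, only *Tfap2a* of 4 was tested; it was low, and it rose from 0.173 ± 0.0451 to 0.81 ± 0.0424 FPKM (1.75, adjusted p = 0.0015). Both lower T-box genes, *Tbx21* and *Tbx4*, lie on chromosome 11. With the median change of each chromosome subtracted the list also had 2 lower calls, given here as a count only. The 6 calls among the T-box genes became 3 without KO 2.

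The simple-epithelial keratin and adhesion genes were called about as often as all tested genes (41.1%). Of 25 listed, 22 were tested, 4 were higher and 4 lower (36.4% called, median −0.05), or 3 higher and 5 lower with the library medians set equal. The tight junction gene *Cldn4* rose from 4.73 ± 0.516 to 14.0 ± 0.403 FPKM (log2 fold change 1.56, adjusted p = 3.7e-04) and *Plec*, the plectin gene whose product links keratin filaments to the membrane, from 2.17 to 4.28 FPKM (0.94, adjusted p = 0.0025). *Ocln* and *Cldn6*, also of tight junctions, fell from 2.05 to 1.14 FPKM (−0.82, adjusted p = 0.0252) and from 2.47 to 1.51 FPKM (−0.68, adjusted p = 0.0025). *Cdh1*, or E-cadherin, was at 100 FPKM in WT and 95.5 FPKM in KO cells (adjusted p = 0.224). The other keratins of trophectoderm, *Krt7* and *Krt19*, which are also in the trophoblast stem list, read 0.373 ± 0.0473 against 0.56 ± 0.0283 FPKM (adjusted p = 0.0598) and 0.257 ± 0.0321 against 0.435 ± 0.163 FPKM (adjusted p = 0.111). The 8 calls of this list became 5 without WT 1 or without WT 3.

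Wnt and BMP response genes, read-outs of pathways known to act upstream of *T*, gave 5 higher and 4 lower of 17 tested of 19 listed (52.9% called, median 0.14). With the median change of each chromosome subtracted the list gave 6 higher and 1 lower, and *Tcf7*, *Notum* and *Znrf3*, 3 of the 4 genes that were lower without that step, lie on chromosome 11. The BMP-induced inhibitors of differentiation *Id3* and *Id1* rose, from 3.5 ± 0.701 to 10.1 ± 0.346 FPKM (log2 fold change 1.51, adjusted p = 0.0011) and from 0.373 ± 0.085 to 1.15 ± 0.354 FPKM (1.39, adjusted p = 0.006). *Lef1*, a partner of β-catenin, fell from 7.3 ± 1.32 to 2.04 ± 0.799 FPKM (−1.83, adjusted p = 0.0027), whereas *Axin2*, the common Wnt reporter gene, was at 11.6 and 11.5 FPKM (adjusted p = 0.826). Over all 7 lists, 89 of 132 genes were tested and 47 were called, 27 higher and 20 lower, or 52.8% beside the 41.1% of all tested genes. The 6 genes held by a pair of lists (*Tfap2a*, *Krt7*, *Krt19*, *Id2*, *Sp5* and *Tbx6*) were counted once. The lists were chosen with earlier results of these data known, so this share only describes them.

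**Figure D5:**
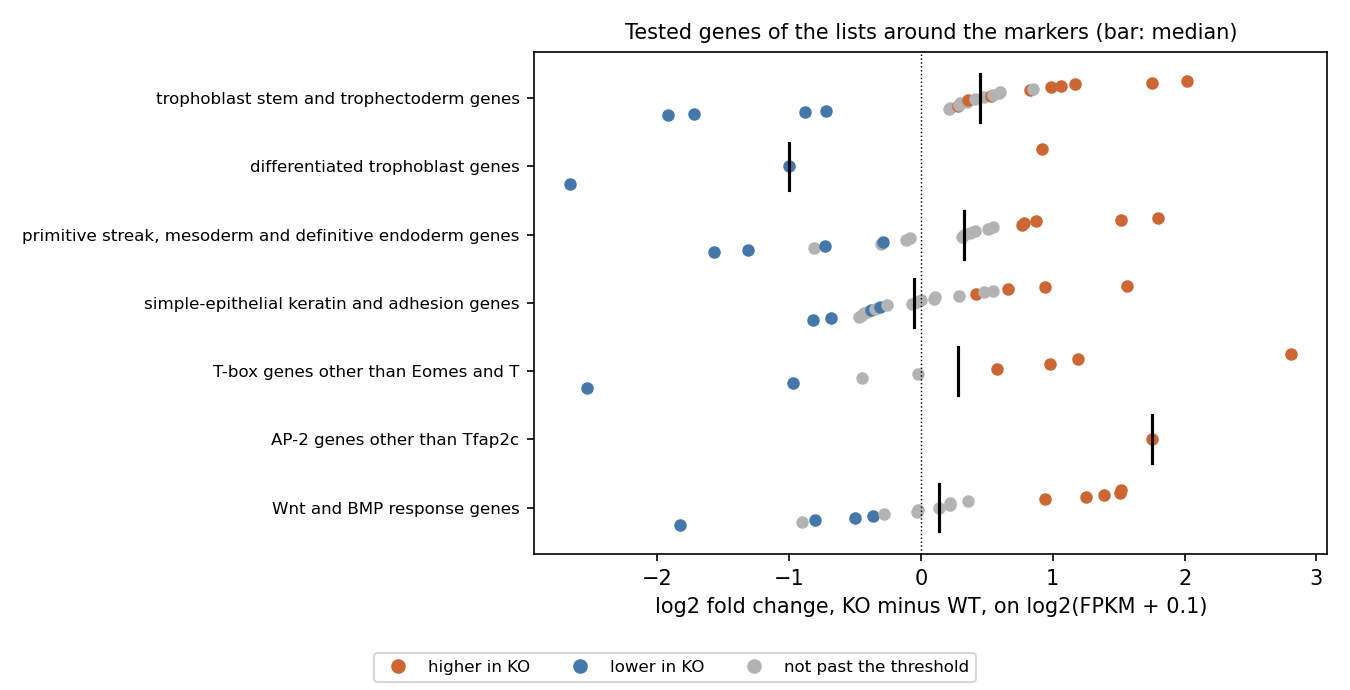
Log2 fold change (KO minus WT, on log2(FPKM + 0.1)) of every tested gene in the 7 lists, 1 point per gene, with the list median as a bar. Each of the larger lists has called genes on both sides of 0, and the median of the trophoblast stem list is 0.45 and that of the keratin and adhesion list −0.05, against −0.01 over all tested genes.

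Genes with profiles most like those of the members were found by the root mean square difference between log2(FPKM + 0.1) profiles, each centred on its own mean over the 5 libraries, among 10664 genes with at least 1 FPKM. For *Eomes* these were *Nt5e* (difference 0.086), *S100a13* (0.108) and *Flrt3* (0.125), and for *Krt8* they were *Jam3* (0.036), *Frmd4b* (0.051) and *Itpk1* (0.074). *Tfap2c*, whose change was small, was matched more closely by *Fam169a* (0.009), *Ptch1* (0.011) and *Abi2* (0.018). For *Gsc* they were *Mir6942* (0.039), *Snord15a* (0.068) and *Mylip* (0.077).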

How the data were processed

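Total RNA depleted of ribosomal RNA was sequenced by the study in paired reads of 150 bases. The deposited table gives FPKM for each library, computed by the authors and rounded to 2 decimals. Reads were mapped to mm10, the submitters' processing notes name STAR 2.5.2 without a role, and the counting tool and gene annotation are not given in the sources used here. The C57BL/6J peak list holds positions only, called by the authors in at least 2 replicates. Chromatin and methylation libraries were not analysed here.

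FPKM are not counts, so limma 3.58.1 (R 4.3.3, moderated test with a mean-variance trend, two-sided) was fitted to log2(FPKM + 0.1) of the 14612 genes that averaged 0.1 FPKM or more. Fold changes are on that scale and understate the change of low genes. P-values were adjusted over all tested genes by Benjamini-Hochberg, with a threshold of 0.05. Limits of fold changes are 95% intervals.

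Depth was estimated from microRNA genes, whose FPKM step in whole fragments: 90.1 to 96.4% of 261 to 306 values per library, up to 5 fragments each, lay within 0.1 of a whole number, against 20.0% by chance. The fragments given for other genes use RefSeq exon lengths, which may differ from the lengths the authors used, and cover counting error only. Gene positions and promoters are RefSeq's on GRCm38 (the assembly mm10); 23189 of 24409 table names matched a RefSeq symbol and 1095 a synonym.

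The members and gene lists were chosen with earlier results of these data known. Genes outside the members were named by rule: in each of 7 lists, up to 4 called genes with the largest changes and up to 2 of the most abundant not called, with a mean of at least 0.5 FPKM, and the 3 closest profiles of each member with at least 1 FPKM. Not every gene that the rule names is reported here. *Stra6*, *Nodal*, *Tfap2a*, *Dlx3*, *Krt7*, *Krt19*, *Slc2a3*, *Atp1b1*, *Tbx4*, *Tcf7*, *Notum*, *Znrf3*, *Krt23*, the single genes of the cell type marker lists, the neighbouring genes and genes at 0 were added after their values were seen. Alternatives covered the pseudocount, the filter, scaling, the variance model, chromosome centring, a replicate block, and each library left out.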

Additional observations from a re-analysis of the deposited data

How the results depend on the processing

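*Eomes* and *Krt8* were called higher in all 15 alternatives run for each, with log2 fold changes of 1.13 to 2.13 and 0.86 to 1.65. No paired design links the libraries: the genotypes share only 2 numbers, and same-numbered libraries did not deviate together (r = −0.0681 and −0.0357 across genes). With the replicate block, calls over all genes fell from 6002 to 3012, marker genes called from 4 to 2 (*T* 0.93, adjusted p = 0.128; *Tfap2c* −0.41, 0.0732), keratin and adhesion genes to 5 and T-box genes to 2. Also requiring a log2 change of 1 left 19 of 47 listed genes: 6 trophoblast stem, 1 differentiated trophoblast, 4 primitive streak, 1 keratin and adhesion, 3 T-box and 5 Wnt and BMP genes. A minimum mean of 1 FPKM left 8 trophoblast stem and 2 T-box calls and no AP-2 gene to test (0 calls of 0 by limma). Leaving out each library in turn gave 3 to 4 marker genes, 36 to 49 listed genes, 5 to 9 keratin and adhesion genes and 3 to 6 T-box genes. *Mixl1*, never called, turned to 0.06 without WT 2 and 0.08 without KO 2 (range −0.12 to 0.08), and *Gsc*, never called, to −0.08 without KO 1 (range −0.08 to 0.45). With 1 KO library left, that library was assumed to vary like the WT group. The cause of these shifts was not tested, except that fewer genes or samples entered under the filter and when libraries were left out. The number of members with a peak within 100 kb stayed at 1 from gene starts and with only the peaks shared with the hybrid list. Depth limits *Cdx2*, *Elf5* and *Hand1* most.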

Other observations

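Of 8 germ cell markers, 5 were lower in KO cells, beside 22.3% of all tested genes: *Dppa3* read 24.21, 35.55 and 36.97 FPKM in WT and 9.04 and 4.43 FPKM in KO libraries, and *Dazl* 8.34, 6.41 and 8.84 against 2.75 and 2.59 FPKM. Both were called lower by limma (log2 fold changes −2.3 and −1.51, adjusted p = 0.0027 and 7.7e-04), as were *Prdm14*, *Dnd1* and *Ddx4*. *Krt23*, an epithelial keratin not tested because of its low mean, was listed at 0 in all 3 WT libraries but read 0.07 FPKM in KO 1 and 0.14 FPKM in KO 2.

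Among genes near the members, *Serpina3m*, a serine protease inhibitor gene 77.0 kb from *Gsc*, read 5.09, 5.68 and 6.09 FPKM in WT and 0.75 and 0.81 FPKM in KO libraries (log2 fold change −2.7, SE 0.1, adjusted p = 2.3e-04), while *Gsc* itself was not called. *Golga4*, 20.1 kb from *Eomes*, read 14.9 ± 0.452 FPKM in WT and 16.4 ± 0.849 FPKM in KO cells (adjusted p = 0.0733). Of the tested genes within 250 kb, limma called 1 of 4 near *Cdx2*, 1 of 6 near *Tfap2c*, 3 of 4 near *Hand1*, 1 of 5 near *T*, 4 of 10 near *Mixl1*, 3 of 4 near *Gsc*, 1 of 9 near *Krt8* and 2 of 10 near *Krt18*, and 0 of 2 near *Eomes* and near *Elf5* (1 and 0 at an unadjusted p under 0.05), where 41.1% of all tested genes were called. The 3 called near *Hand1* and the 4 near *Mixl1* were all lower. Those near *Hand1* lie on chromosome 11, whose tested genes had a median log2 fold change of −0.47. The windows of *Krt8* and *Krt18* overlap and share genes, so their counts are not separate. *Krt8*, called higher, is itself a neighbour of *Krt18* at 23.9 kb. The neighbours were examined after the values of the members were seen.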
